A study of Mus musculus with 15 samples.

Results

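The lysosome is kept acidic by a proton pump and filled with proteases that work at low pH, and the genes described here encode both, together with the main proteins of its membrane. They were taken by symbol from the table of mouse islet expression. Every gene whose symbol begins with Atp6v (subunits of the vacuolar proton pump) or Laptm, every cathepsin written as Cts and a single letter, and the LAMP genes Lamp1 to Lamp5 were included, which gave 47 of 20308 genes. Of these, 37 had a 75th percentile over the 15 libraries above 10 normalized expected counts and were tested, together with all other genes past that filter (14151 in all), and 10 were below it. Of the 37, 5 (Atp6v0a4, Atp6v0d2, Atp6v1c2, Ctse and Lamp5) had a mean below 10 in the GFP islets. They passed the filter through the ca-NFAT libraries and so had to differ.

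Whole islets of C57BL/6 mice were transduced with an adenovirus for GFP, for a constitutively active (ca) form of mouse Nfatc1 or for one of mouse Nfatc2, and RNA was taken 48 hr later. On each of 5 days the islets of 6 mice were pooled and split over the 3 viruses, which gave 5 libraries per group. Libraries with equal replicate numbers come from 1 day. In the ca forms, regulatory serines of the calcineurin-dependent transcription factor are replaced by alanine. All groups, the GFP control included, carry virus, the CMV promoter of the viruses is not specific to a cell type, and no islets without virus were sequenced. The age of these mice is not given in the sources used here. Depth was 13.36 to 18.87 M expected counts per library in the GFP group, 15.32 to 21.13 M in the ca-Nfatc1 group and 13.52 to 19.84 M in the ca-Nfatc2 group. Nfatc1 had a log2 fold change of 6.82 in the ca-Nfatc1 islets and Nfatc2 one of 6.66 in the ca-Nfatc2 islets, so that both targeted genes followed their labels. The islet markers were present. The summed level of 9 beta cell genes (Ins1, Ins2, Iapp, Mafa, Pdx1, Nkx6-1, Slc2a2, G6pc2 and Ucn3) was 1133140 to 1684040 in GFP islets, 787761 to 1178010 in ca-Nfatc1 islets and 526027 to 950104 in ca-Nfatc2 islets. In RNA from whole islets, fewer cells of a type and less RNA per cell cannot be told apart.

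The proton pump, or V-ATPase, has a V1 sector on the cytosolic side that hydrolyses ATP and a V0 sector in the membrane that carries protons. Several subunits have more than a single gene, often with a widespread and a tissue-restricted version. Cathepsins are made as inactive precursors, are sorted to the lysosome and are activated there by acid. In beta cells the same pump also acidifies the insulin granule, where prohormones are processed, and lysosomes take up surplus granules. LAMP1 and LAMP2 are the heavily glycosylated proteins that line the lysosomal membrane. Many genes of the compartment carry the hexamer CACGTG near their start, the core of the element that the MiT/TFE transcription factors (TFEB, TFE3 and MITF) recognise.

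Promoter windows of 300 bases (250 before and 50 after the start, RefSeq, GRCm38.p6, the build of mm10) were at hand for 27 of the 37 tested genes. The hexamer CACGTG was in the windows of 9 of these 27 genes (33.3%), against 8.09% of 27025 genes with such windows. The 9 were Atp6v0b, Atp6v0d1, Atp6v0e, Atp6v1a, Ctsa, Ctsd, Ctsf, Ctsl and Lamp1. The core bases of NFAT sites, GGAAA on either strand, were in 21 of the 27 (77.8%), against 64.4% of all genes, and the AP-1 heptamer TGANTCA was in 2 (Atp6v0a1 and Laptm4a, 7.41%), against 8.97%. None of the 3 motifs contains another. A match is only a run of letters in this window, and binding was not measured. Shown first are the windows of 3 genes with CACGTG (in capitals), chosen because Atp6v0b was higher with both ca-NFATs, Ctsd was lower with both and Lamp1 was lower with ca-Nfatc2 alone.
Atp6v0b, chr4:117887280-117887579, minus strand: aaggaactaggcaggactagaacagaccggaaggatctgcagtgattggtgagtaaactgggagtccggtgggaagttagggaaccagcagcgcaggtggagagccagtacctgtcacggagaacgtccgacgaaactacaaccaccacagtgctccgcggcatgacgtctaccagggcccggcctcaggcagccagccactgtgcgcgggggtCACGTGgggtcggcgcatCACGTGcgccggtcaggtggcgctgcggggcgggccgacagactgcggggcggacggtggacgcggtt
Ctsd, chr7:142387778-142388077, minus strand: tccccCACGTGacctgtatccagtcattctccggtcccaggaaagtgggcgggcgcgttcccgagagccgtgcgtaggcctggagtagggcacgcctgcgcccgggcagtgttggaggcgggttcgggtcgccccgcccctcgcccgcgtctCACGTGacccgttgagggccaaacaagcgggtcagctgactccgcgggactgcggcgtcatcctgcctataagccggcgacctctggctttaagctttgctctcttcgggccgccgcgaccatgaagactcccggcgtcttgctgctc
Lamp1, chr8:13158911-13159210, plus strand: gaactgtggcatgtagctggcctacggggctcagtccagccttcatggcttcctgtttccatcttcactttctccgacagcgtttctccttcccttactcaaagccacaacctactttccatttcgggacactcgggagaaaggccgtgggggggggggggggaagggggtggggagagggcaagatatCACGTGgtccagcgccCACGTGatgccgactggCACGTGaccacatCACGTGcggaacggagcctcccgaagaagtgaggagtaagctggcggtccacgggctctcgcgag
Atp6v0b and Ctsd hold 2 copies of the hexamer each, and Lamp1 holds 4. GGAAA on either strand occurs 4 times for Atp6v0d1 and 3 times for Ctsl, which fell with both ca-NFATs. It is absent for Atp6v0a4, which rose with both. The Ctsd and Lamp1 windows above hold 1 and 2 copies, not in capitals. Ctsk and Atp6v1c2 had the largest rises with ca-Nfatc1 after Lamp5. Their windows hold no CACGTG and a single TTTCC each, the reverse complement of GGAAA (in capitals).
Ctsk, chr3:95498960-95499259, plus strand: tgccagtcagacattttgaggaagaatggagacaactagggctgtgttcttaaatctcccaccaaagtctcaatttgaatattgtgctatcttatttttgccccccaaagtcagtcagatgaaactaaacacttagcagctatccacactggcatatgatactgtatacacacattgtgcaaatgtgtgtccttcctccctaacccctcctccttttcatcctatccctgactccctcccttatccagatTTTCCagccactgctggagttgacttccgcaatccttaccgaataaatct
Atp6v1c2, chr12:17324681-17324980, minus strand: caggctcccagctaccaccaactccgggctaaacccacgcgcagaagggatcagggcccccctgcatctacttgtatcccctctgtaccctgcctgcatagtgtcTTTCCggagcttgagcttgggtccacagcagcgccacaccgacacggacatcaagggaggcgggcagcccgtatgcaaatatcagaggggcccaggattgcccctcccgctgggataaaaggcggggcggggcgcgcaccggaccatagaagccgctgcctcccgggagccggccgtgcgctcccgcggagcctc

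The 37 genes did not move as a group. Relative to GFP, ca-Nfatc1 gave 14 higher and 9 lower genes (limma, adjusted p under 0.05), where 28.4% of all genes tested rose and 28.4% fell. With ca-Nfatc2, 11 were higher and 15 lower, where 35.7% of all genes were higher and 32.8% lower. The counts are thus 37.8% higher and 24.3% lower with ca-Nfatc1, and 29.7% higher and 40.5% lower with ca-Nfatc2, on both sides of the background. The median log2 fold change of the 37 genes was 0.03 with ca-Nfatc1 and -0.09 with ca-Nfatc2, against -0.02 and 0.01 over all genes tested. Without the 5 genes that passed the filter through the ca-NFAT libraries, 9 of 32 rose and 9 fell in ca-Nfatc1 islets, against 6 and 15 in ca-Nfatc2 islets. The ca-Nfatc1 shares were then close to the 28.4% of all genes each way, so the excess of higher genes rested on those 5. With ca-Nfatc2 the higher share was then below, and the lower share above, that of all genes. The shares over all genes still include genes that passed the filter in this way. Under quantile normalization, which moved the median of all genes to -0.12 (ca-Nfatc1) and -0.10 (ca-Nfatc2 islets), the ca-Nfatc2 split was 9 higher and 19 lower.

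Set directly against each other, the factors differed mostly in the same direction. With ca-Nfatc2, 18 of the 37 genes (48.6%) were lower and 3 (8.11%) were higher than with ca-Nfatc1, where 25.7% of all genes tested were lower and 23.6% higher. The median difference was -0.20 on the log2 scale, against -0.04 over all genes. The 3 higher genes were Atp6v1g1, Ctsl and Ctsz. Without ca-Nfatc2 replicate 4, which stands apart for the macrophage genes described below, the counts were 15 lower and 3 higher, and those against GFP were the same as with all libraries. The comparisons with GFP share the GFP libraries, so the values of both are given side by side. Levels are normalized expected counts, given as mean ± SD over 5 libraries, and a log2 fold change is a difference of log2(value + 1) with its standard error (SE).

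**Figure D1:**
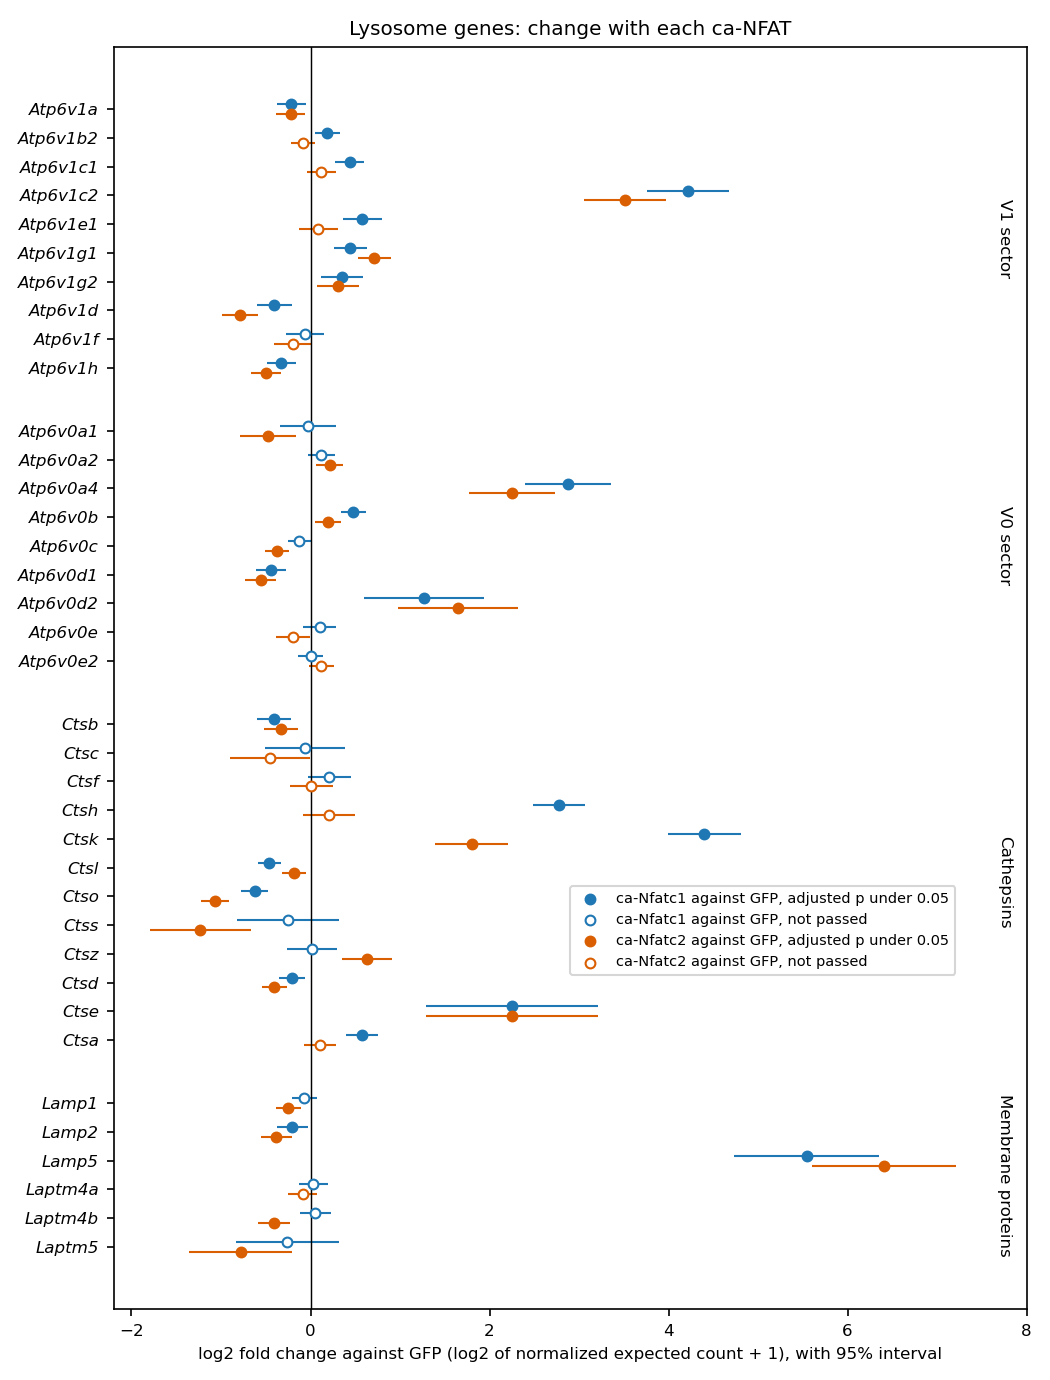
Log2 fold changes of the 37 tested lysosome genes with ca-Nfatc1 (blue) and ca-Nfatc2 (orange) relative to GFP, with 95% intervals, ordered by role; filled points passed an adjusted p of 0.05. Most genes lie between -1 and 1, and Atp6v1c2, Atp6v0a4, Atp6v0d2, Ctsk, Ctse and Lamp5 lie above 1 with both ca-NFATs.

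In the V1 sector, all 5 genes of the peripheral stalks (subunits C, E and G) and the head subunit Atp6v1b2 rose in the ca-Nfatc1 islets, while the catalytic subunit Atp6v1a, the rotor subunit Atp6v1d and the regulatory subunit Atp6v1h fell. Of 10 tested V1 genes, 6 rose (60%) and 3 fell (30%) in ca-Nfatc1 islets, where 28.4% of all genes rose and 28.4% fell. In ca-Nfatc2 islets 3 rose (30%) and 3 fell (30%), below the 35.7% and 32.8% of all genes. Without Atp6v1c2, which passed the filter through the ca-NFAT libraries, 5 of 9 and 2 of 9 rose. The largest change was that of Atp6v1c2, the tissue-restricted version of stalk subunit C, known from kidney and lung. With GFP, Atp6v1c2 was at 3.84, 4.03, 5.59, 3.33 and 1.84 in replicates 1 to 5. In the ca-Nfatc1 islets it was at 102, 81.9, 91.6, 72.6 and 73.9. In the ca-Nfatc2 islets it was at 69.3, 50.4, 37.9, 50.5 and 51.7. The 3 groups did not overlap, and every ca-Nfatc1 library was above every ca-Nfatc2 library. The log2 fold change was 4.22 (SE 0.22, adjusted p = 1.39e-11) with ca-Nfatc1 and 3.51 (SE 0.22, adjusted p = 1.57e-10) with ca-Nfatc2, and the difference between the factors was -0.70 (adjusted p = 0.0124). At such low GFP levels the fold depends on the pseudocount, and with a pseudocount of 10 the values were 2.78 and 2.16. Atp6v1c2 overlaps Pdia6 in the genome, and Pdia6 itself was at 7458, 6151 and 5853 in the GFP, ca-Nfatc1 and ca-Nfatc2 islets.

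Stalk subunit G1 moved in the same direction and had a higher level with ca-Nfatc2. Atp6v1g1 measured 4208, 4169, 3574, 3876 and 3773 in the GFP replicates. With ca-Nfatc1 the values were 6011, 5833, 4179, 5787 and 5059, and with ca-Nfatc2 they were 6852, 6032, 6021, 6635 and 6599. The ca-Nfatc2 libraries were all above the other 10, and only ca-Nfatc1 replicate 3 reached into the GFP range. As a log2 fold change this was 0.45 (SE 0.09, adjusted p = 0.000293) with ca-Nfatc1 and 0.71 (SE 0.09, adjusted p = 1.11e-06) with ca-Nfatc2, a difference of 0.27 (adjusted p = 0.0165). Atp6v1c1, the widespread subunit C, averaged 4392 ± 433, 5943 ± 514 and 4767 ± 327 in the GFP, ca-Nfatc1 and ca-Nfatc2 islets. It was higher with ca-Nfatc1 (log2 fold change 0.44, adjusted p = 8.67e-05) and at 0.12 with ca-Nfatc2 (adjusted p = 0.164, 0.0322 with a replicate block for the day and 0.0368 without GFP replicate 1). Atp6v1e1, stalk subunit E, averaged 5401 ± 612, 8086 ± 1106 and 5737 ± 646 in the same order, with log2 fold changes of 0.58 (adjusted p = 0.00012) and 0.09 (adjusted p = 0.47). Both were lower with ca-Nfatc2 than with ca-Nfatc1, by 0.32 and 0.49 on the log2 scale. Atp6v1g2, the brain version of subunit G, averaged 68.5 ± 7.48, 87.1 ± 4.15 and 84.9 ± 9.52, with log2 fold changes of 0.35 and 0.31 (adjusted p = 0.0135 and 0.0224). Atp6v1g2 overlaps Nfkbil1 in the genome (172 in GFP and 220.5 in ca-Nfatc2 islets, log2 fold change 0.36, adjusted p = 0.0053). Neither change of Atp6v1g2 passed under quantile normalization (adjusted p = 0.401 and 0.728), and the ca-Nfatc2 change did not pass without GFP replicate 4 (0.0613) or without ca-Nfatc2 replicate 5 (0.0680).

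The central rotor subunit D fell with both. Atp6v1d was at 3971, 3825, 3150.0, 3473 and 3404 with GFP. It was at 3025, 2988, 2132, 2852 and 2548 with ca-Nfatc1 and at 2342, 1886, 1915, 1962 and 2204 with ca-Nfatc2. All 10 ca-NFAT libraries were below all 5 GFP libraries, and within each of the 5 days ca-Nfatc2 was below ca-Nfatc1. The log2 fold change was -0.40 (SE 0.10, adjusted p = 0.00155) with ca-Nfatc1 and -0.79 (SE 0.10, adjusted p = 9.53e-07) with ca-Nfatc2. Atp6v1h, the regulatory subunit that holds the 2 sectors together, was at 4748, 4684, 3955, 4486 and 4291 with GFP, at 3605, 4013, 3049, 3771 and 3278 with ca-Nfatc1 and at 3406, 3012, 3016, 2875 and 3381 with ca-Nfatc2. The ca-Nfatc2 libraries were all below the GFP range, whereas ca-Nfatc1 replicate 2 lay within it. Its log2 fold changes were -0.33 (adjusted p = 0.00163) and -0.50 (adjusted p = 1.99e-05), and the difference between the factors of -0.17 passed only with the replicate block (adjusted p = 0.0769 without it and 0.0276 with it), under equal totals (0.0406), under quantile normalization (0.0351) and without ca-Nfatc1 replicate 3 (0.0210).

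The catalytic head moved little. Atp6v1a, the ATP-hydrolysing subunit, averaged 5413 ± 687, 4649 ± 279 and 4628 ± 321, with log2 fold changes of -0.21 and -0.22 (adjusted p = 0.0269 and 0.0184). GFP replicate 1 was the highest library at 6543, and without it neither change passed (adjusted p = 0.0757 and 0.0527). The ca-Nfatc1 change was also lost under equal totals (0.0779) and without ca-Nfatc1 replicates 3, 4 or 5 (0.0521 to 0.0627). Atp6v1b2, the other head subunit, averaged 8907 ± 563, 10153 ± 651 and 8389.5 ± 538. It was higher with ca-Nfatc1 (log2 fold change 0.19, adjusted p = 0.0196, but 0.0521 without GFP replicate 3 and 0.0518 without ca-Nfatc1 replicate 2), at -0.09 with ca-Nfatc2 (adjusted p = 0.246, and 0.0159 under quantile normalization), and lower with ca-Nfatc2 than with ca-Nfatc1 in libraries that did not overlap (-0.28, adjusted p = 0.00198). The V1 gene with the smallest change over the 3 groups was Atp6v1f, the second rotor subunit. It was at 2403, 2306, 1833, 2087 and 1906 with GFP, at 2372, 2168, 1613, 2196 and 1781 with ca-Nfatc1 and at 1990.0, 1699, 1689, 1894 and 1922 with ca-Nfatc2, and the groups overlapped throughout. Its log2 fold changes were -0.06 (95% interval -0.28 to 0.15) and -0.19 (95% interval -0.41 to 0.02, adjusted p = 0.102, and 0.0147 with the replicate block).

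The V0 sector, which carries the protons, gave 3 higher (33.3%) and 1 lower gene (11.1%) of 9 with ca-Nfatc1. With ca-Nfatc2, 4 were higher (44.4%) and 3 lower (33.3%). Over all genes tested, 28.4% rose and 28.4% fell with ca-Nfatc1, and 35.7% rose and 32.8% fell with ca-Nfatc2. Without Atp6v0a4 and Atp6v0d2, which passed the filter through the ca-NFAT libraries, 1 rose and 1 fell of 7 with ca-Nfatc1, and 2 rose and 3 fell with ca-Nfatc2. Atp6v0a4, the form of subunit a that is known from acid-secreting cells of the kidney, was at 4.13, 5.47, 2.31, 3.43 and 4.78 with GFP. It was at 32.8, 44.1, 43.1, 37.2 and 22.6 with ca-Nfatc1 and at 22.5, 24.2, 22.9, 20.9 and 21.3 with ca-Nfatc2. All ca-NFAT libraries were above all GFP libraries, and the ca-Nfatc2 values lay closer together than the ca-Nfatc1 values. On the log2 scale the fold change was 2.88 (SE 0.23, adjusted p = 6.35e-09) with ca-Nfatc1 and 2.25 (SE 0.23, adjusted p = 1.1e-07) with ca-Nfatc2. The difference between the factors was -0.63 (adjusted p = 0.031), and it did not pass without ca-Nfatc1 replicates 2, 3 or 4 (0.0609 to 0.0810) or without ca-Nfatc2 replicates 4 or 5 (0.0557 and 0.0583). Of 4 markers of kidney cells that secrete acid or base, Foxi1 and Aqp6 were at 0 in 14 of 15 libraries each. The anion exchanger genes Slc26a4 and Slc4a1 were higher in every ca-Nfatc1 library than in any GFP library. Slc26a4, known from base-secreting rather than acid-secreting cells, averaged 1.2, 11.2 and 3.47 in the GFP, ca-Nfatc1 and ca-Nfatc2 islets. Slc4a1 was at 0.645, 10.2 and 10.3, the last with an SD of 16.97 and libraries that overlapped those of GFP. None of the 4 passed the filter, so they were not tested. The summed level of the 4 was 1.11 to 2.88 in GFP islets, 12.1 to 27.7 in ca-Nfatc1 islets and 2.10 to 42.1 in ca-Nfatc2 islets. Atp6v0a4 overlaps D630045J12Rik in the genome, which was itself higher with both (469, 1006 and 816 in the GFP, ca-Nfatc1 and ca-Nfatc2 islets). The part of these markers and of the overlap in the values of Atp6v0a4 was not tested.

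Atp6v0d2, the form of subunit d known from osteoclasts, was another gene of low GFP level. It averaged 4.02 ± 0.898, 11.1 ± 2.21 and 16.2 ± 7.95, with log2 fold changes of 1.27 (adjusted p = 0.00241) and 1.65 (adjusted p = 0.000175). No ca-NFAT library was within the GFP range, but neither change passed under quantile normalization (adjusted p = 0.360 and 0.0694). Atp6v0d1, the widespread form of subunit d, fell. It was at 2770.0, 3122, 3128, 3197 and 3014 with GFP, at 1905, 2498, 2134, 2499 and 2249 with ca-Nfatc1 and at 1774, 2137, 2292, 2041 and 2122 with ca-Nfatc2. Again the GFP libraries did not overlap the others, and the 2 ca-NFAT groups overlapped each other. The log2 fold change was -0.44 (SE 0.08, adjusted p = 0.000153) with ca-Nfatc1 and -0.56 (SE 0.08, adjusted p = 7.75e-06) with ca-Nfatc2.

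The ring that turns in the membrane is built from the products of Atp6v0b and Atp6v0c, and these moved apart. Atp6v0b was at 3944, 4269, 3854, 4039 and 3789 with GFP, at 6086, 5812, 4941, 5905 and 5042 with ca-Nfatc1 and at 4983, 4687, 4562, 4261 and 4339 with ca-Nfatc2. The ca-Nfatc1 libraries were all above the GFP range and the ca-Nfatc2 libraries reached into it. Relative to GFP, the log2 fold change was 0.48 (SE 0.07, adjusted p = 9.58e-06) with ca-Nfatc1 and 0.20 (SE 0.07, adjusted p = 0.0152) with ca-Nfatc2. Atp6v0c was at 6036, 5619, 5745, 5953 and 5491 with GFP, at 5748, 5213, 4796, 5309 and 5437 with ca-Nfatc1 and at 4651, 4119, 4236, 4984 and 4248 with ca-Nfatc2. Here the ca-Nfatc2 libraries were all below the GFP range. Its log2 fold change was -0.38 (SE 0.06, adjusted p = 4.16e-05) with ca-Nfatc2 and -0.12 with ca-Nfatc1 (adjusted p = 0.104, and 0.0328 with the replicate block). RefSeq lists pseudogene copies of Atp6v0c, which could share its reads, so its level is uncertain.

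Among the other forms of subunit a, Atp6v0a1 averaged 2754 ± 480.4, 2698 ± 417 and 1992 ± 365. It was lower with ca-Nfatc2 (log2 fold change -0.47, adjusted p = 0.00951) and at -0.03 with ca-Nfatc1 (95% interval -0.34 to 0.29). The difference between the factors of -0.45 (adjusted p = 0.0197) did not pass without ca-Nfatc2 replicate 1 (0.0551), the lowest library at 1356, without ca-Nfatc1 replicate 3 (0.0518) or with no filter on low values (0.0580). Atp6v0a2, the form of the Golgi, averaged 1013 ± 49.2, 1104 ± 86.2 and 1177 ± 119, and it was higher with ca-Nfatc2 (0.21, adjusted p = 0.0145) and at 0.12 with ca-Nfatc1 (adjusted p = 0.157, and 0.0392 under equal totals). The small subunit e has 2 forms. Atp6v0e averaged 2837 ± 305, 3045 ± 358 and 2467 ± 205, and was lower with ca-Nfatc2 than with ca-Nfatc1 (-0.30, adjusted p = 0.0102). Against GFP the ca-Nfatc2 value of Atp6v0e was -0.20 (adjusted p = 0.0569, and 0.00736 with the replicate block), a call that also passed without GFP replicate 3 (0.0274) or 5 (0.0364), ca-Nfatc1 replicate 3 (0.0370) or ca-Nfatc2 replicate 1 (0.0305). Atp6v0e2 had the smallest change in the sector, at 3452, 2920.1, 3044, 3082 and 2995 with GFP. It was at 3358, 3125, 2739, 3262 and 3067 with ca-Nfatc1 and at 3703, 3324, 3414, 3089.8 and 3294 with ca-Nfatc2. Its groups overlapped, and its log2 fold changes were 0.0044 (95% interval -0.13 to 0.14) and 0.12 (95% interval -0.02 to 0.26, adjusted p = 0.119). The latter passed with the replicate block (0.0425), under equal totals (0.0124) and without GFP replicate 1 (0.0384).

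Because 2 forms of a subunit compete for a place in the pump, their ratio in each library was also computed, as a description with no test. The ratio of Atp6v1c2 to Atp6v1c1 averaged -9.91, -6.13 and -6.52 on the log2 scale in the GFP, ca-Nfatc1 and ca-Nfatc2 islets. That of Atp6v0a4 to Atp6v0a1 averaged -9.12, -6.21 and -6.39 in the same order, and that of Atp6v0d2 to Atp6v0d1 averaged -9.26, -7.56 and -7.06. In all 3 pairs the GFP libraries did not overlap the ca-NFAT libraries, and in all 3 the islet form remained far above the other in every library. The first gene of each of these 3 pairs passed the filter through the ca-NFAT libraries. The separation from GFP therefore follows in part from the filter. The ratio of Atp6v0a2 to Atp6v0a1 averaged -1.42, -1.28 and -0.74, and that of Atp6v0e2 to Atp6v0e averaged 0.13, 0.04 and 0.45. For Atp6v0e2 and Atp6v0e, all ca-Nfatc2 libraries (0.35 to 0.61) were above all others, while for Atp6v0a2 and Atp6v0a1 the groups overlapped, although within each of the 5 days the ca-Nfatc2 ratio was above the GFP ratio, by 0.58 to 0.93. Atp6v1g2 against Atp6v1g1 averaged -5.82, -5.92 and -6.23, with ca-Nfatc2 at the lower end. The subunit a gene that lacks the family name, Tcirg1 (a3), stood at -3.43, -3.45 and -3.32 relative to Atp6v0a1, with groups that overlapped.

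**Figure D2:**
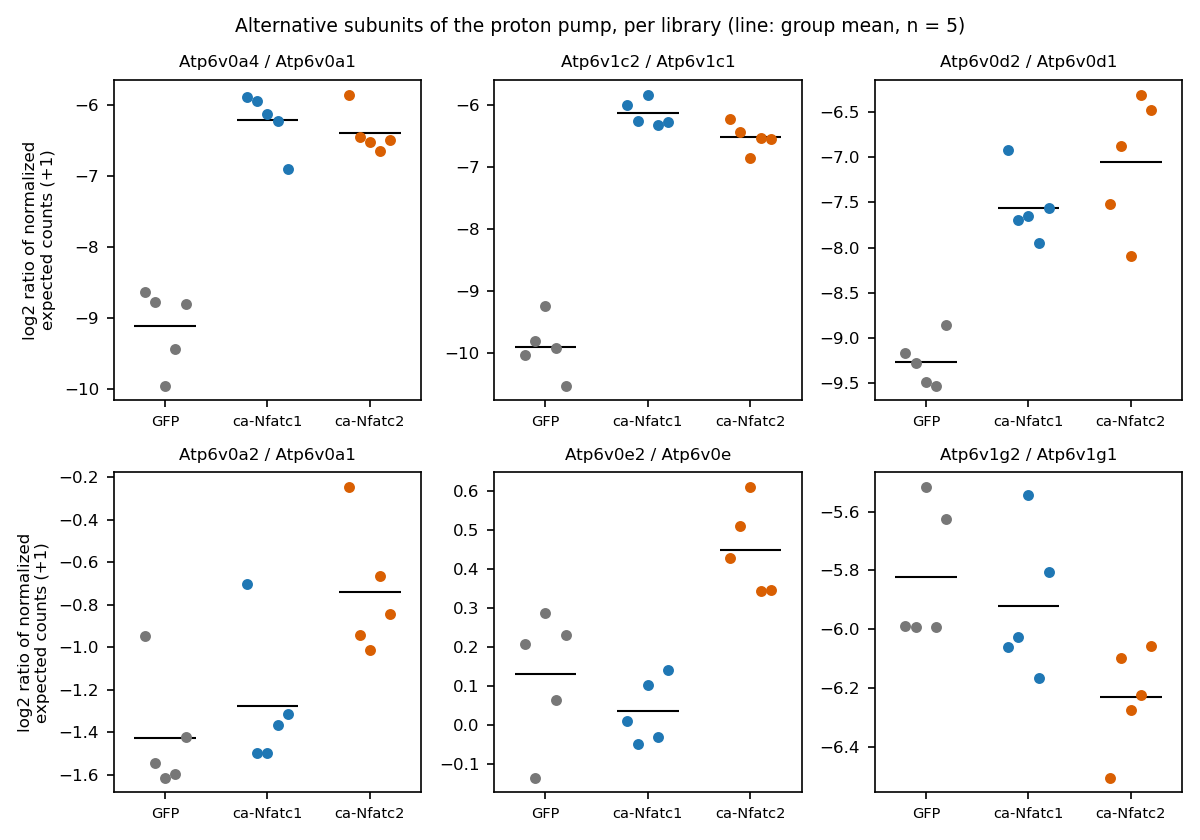
Log2 ratio of the normalized expected counts (each + 1) of alternative proton pump subunits in each library (points, replicates 1 to 5 from left to right) with the group mean (line, n = 5). In the upper row the GFP libraries lie below all ca-NFAT libraries, at means of -9.12, -9.91 and -9.26. The first gene of each pair in that row passed the filter through the ca-NFAT libraries. In the middle of the lower row the ca-Nfatc2 libraries lie above the others.

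Levels of different genes can be set side by side only per length of transcript. Divided by the median length of their GENCODE transcripts with a RefSeq accession, Atp6v0c was at 4876 ± 191 per kb, Atp6v1e1 at 4116 ± 466, Atp6v0b at 3979 ± 187, Atp6v1g1 at 3454 ± 236, Atp6v0e at 3447 ± 370 and Atp6v1b2 at 3153 ± 199. Atp6v1e1 and Atp6v0b do not differ beyond their spread, nor do Atp6v1g1 and Atp6v0e. Atp6v1d was at 972 ± 90.4 per kb and Atp6v0a1 at 722 ± 126, and the restricted forms Atp6v1c2, Atp6v0d2 and Atp6v0a4 were at 2.39 ± 0.866, 1.58 ± 0.354 and 1.23 ± 0.371. With ca-Nfatc1, Atp6v1c2 reached 54.2 ± 8.02 per kb, against 2870.0 ± 248 for Atp6v1c1. Among the protein classes described next, the highest GFP levels per kb were those of Lamp1 (9246 ± 495), Lamp2 (6203 ± 527) and Ctsd (4967 ± 190.4), and Laptm4a and Ctsl lay within 1 SD of Ctsd.

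Of 12 cathepsins tested, 4 rose (33.3%) and 4 fell (33.3%) in ca-Nfatc1 islets, where 28.4% of all genes rose and 28.4% fell. In ca-Nfatc2 islets 3 rose (25%) and 5 fell (41.7%), against 35.7% and 32.8% of all genes. Without Ctse, which passed the filter through the ca-NFAT libraries, 3 of 11 rose in ca-Nfatc1 islets and 2 of 11 in ca-Nfatc2 islets. Ctsk encodes cathepsin K, the collagen-degrading protease of osteoclasts and a known NFATc1 target there. It was at 42.2, 49.7, 67.1, 66.6 and 116 with GFP. With ca-Nfatc1 it was at 1695, 1306, 1259, 1403 and 1254, and with ca-Nfatc2 it was at 275, 196, 243, 222 and 202. The 3 groups were fully separate, with ca-Nfatc1 the highest. The mean was 20.2-fold the GFP mean with ca-Nfatc1 and 3.33-fold with ca-Nfatc2. As a log2 fold change this was 4.40 (SE 0.19, adjusted p = 1.7e-12) with ca-Nfatc1 and 1.80 (SE 0.19, adjusted p = 2.45e-07) with ca-Nfatc2, and the difference was -2.60 (SE 0.19, adjusted p = 1.07e-08). Of the osteoclast markers, Acp5 (tartrate-resistant acid phosphatase) was at 71.8, 853 and 1106 in the GFP, ca-Nfatc1 and ca-Nfatc2 islets, and Calcr (calcitonin receptor) at 2.96, 13.6 and 71.3. The ca-Nfatc2 mean of Acp5 rests on replicate 4 (3055). The other 4 libraries were at 406 to 1135 with a mean of 619, below the ca-Nfatc1 mean. Acp5 and Calcr passed with both factors, while Ocstamp was at 99.6, 110.2 and 114 and did not pass, and the fusion protein gene Dcstamp averaged at most 2.46. Calcr, with a GFP mean of 2.96, had passed the filter through the ca-NFAT libraries, so its calls follow in part from the filter. The summed level of these 4 markers was 153 to 193 in GFP islets, 738 to 1339.6 in ca-Nfatc1 islets and 598 to 3272 in ca-Nfatc2 islets, and their part in the result was not tested.

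Ctsh, which encodes the aminopeptidase cathepsin H, rose with ca-Nfatc1 alone. It was at 231, 211, 198, 199 and 249 with GFP. With ca-Nfatc1 it was at 1699.9, 1299, 1299, 1519 and 1663, and with ca-Nfatc2 at 238, 204, 207, 371 and 261. The ca-Nfatc1 libraries were far above both other groups, and the ca-Nfatc2 libraries overlapped the GFP range apart from replicates 4 and 5, which were above it. The mean was 6.88-fold the GFP mean with ca-Nfatc1 (log2 fold change 2.77, SE 0.14, adjusted p = 8.51e-12). With ca-Nfatc2 the log2 fold change was 0.21 (95% interval -0.09 to 0.50, adjusted p = 0.195), and the difference between the factors was -2.57 (SE 0.14, adjusted p = 2.48e-10). Ctsa, the carboxypeptidase that protects beta-galactosidase and neuraminidase in the lysosome, followed the same order at a smaller scale. It averaged 3213 ± 233, 4803 ± 605 and 3469 ± 352 in the GFP, ca-Nfatc1 and ca-Nfatc2 islets. It was higher with ca-Nfatc1 (0.57, adjusted p = 1.66e-05), at 0.11 with ca-Nfatc2 (adjusted p = 0.269), and lower with ca-Nfatc2 than with ca-Nfatc1 (-0.47, adjusted p = 0.000218).

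Ctso, a widely expressed cysteine protease, had the largest fall with ca-Nfatc1. It was at 3844, 3775, 3190.2, 3474 and 3509 with GFP. It was at 2275, 2412, 2136, 2411 and 2311 with ca-Nfatc1 and at 1880.1, 1484, 1601, 1648 and 1890.1 with ca-Nfatc2. The 3 groups did not overlap, and the order GFP, ca-Nfatc1, ca-Nfatc2 held on each of the 5 days. The log2 fold change was -0.62 (SE 0.07, adjusted p = 9.43e-07) with ca-Nfatc1 and -1.07 (SE 0.07, adjusted p = 5.39e-10) with ca-Nfatc2, and the difference was -0.45 (adjusted p = 6.84e-05). The abundant cathepsins fell as well. Ctsl, a major endopeptidase of the lysosome, was at 9883, 9896, 8999.8, 9122 and 9738 with GFP, at 6977, 7329.9, 6167, 7558 and 6689 with ca-Nfatc1 and at 8342, 7823, 8054, 8927 and 8726 with ca-Nfatc2. No groups overlapped, and ca-Nfatc1 was the lowest. Its log2 fold changes were -0.46 (SE 0.06, adjusted p = 7.15e-06) and -0.19 (SE 0.06, adjusted p = 0.0144), and the second was at an adjusted p of 0.0524 under equal totals. With ca-Nfatc2 it was higher than with ca-Nfatc1 (0.27, adjusted p = 0.00176).

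Ctsb, the most abundant cathepsin of these islets by normalized expected count, averaged 13428 ± 1466, 10083 ± 942 and 10689.8 ± 1155 in the GFP, ca-Nfatc1 and ca-Nfatc2 islets. Both were lower (-0.41, adjusted p = 0.000827, and -0.33, adjusted p = 0.0037). Ctsd, the main aspartic protease, averaged 10565 ± 405, 9179.7 ± 757 and 8001 ± 595, and was likewise lower with ca-Nfatc1 (-0.21, adjusted p = 0.0146) and with ca-Nfatc2 (-0.40, adjusted p = 4.15e-05). Its difference between the factors (-0.20, adjusted p = 0.022) was lost without ca-Nfatc1 replicates 1, 2 or 4 or ca-Nfatc2 replicates 4 or 5 (0.0502 to 0.0574). Ctse, the aspartic protease of stomach and immune cells, averaged 4.77 ± 5.07, 22.2 ± 8.17 and 25.2 ± 17.5. It was higher with ca-Nfatc1 (2.25, adjusted p = 0.000413) and ca-Nfatc2 (2.25, adjusted p = 0.000291), although GFP replicate 5 at 13.8 lay within the ca-Nfatc2 range of 8.42 to 54.6. Ctsc, the dipeptidase that activates serine proteases of immune cells, averaged 305 ± 86.0, 294 ± 83.6 and 217 ± 28.9. Its log2 fold changes were -0.06 and -0.45 (adjusted p = 0.825 and 0.0672). With the replicate block the ca-Nfatc2 value passed against GFP (0.0199) and against ca-Nfatc1 (0.0496), and it also passed without GFP replicate 2 (0.0287), GFP replicate 4 (0.0331) or ca-Nfatc1 replicate 4 (0.0239 against GFP and 0.0114 between the factors). Ctsf, the cathepsin with the smallest change, was at 1223, 1148, 1221, 1258 and 1049 with GFP, at 1618, 1453, 1195, 1384 and 1211 with ca-Nfatc1 and at 1457, 1353, 1237, 899 and 1066 with ca-Nfatc2. Its groups overlapped, with log2 fold changes of 0.21 (95% interval -0.03 to 0.45, adjusted p = 0.123, and 0.0395 under equal totals) and 0.01 (95% interval -0.23 to 0.25).

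**Figure D3:**
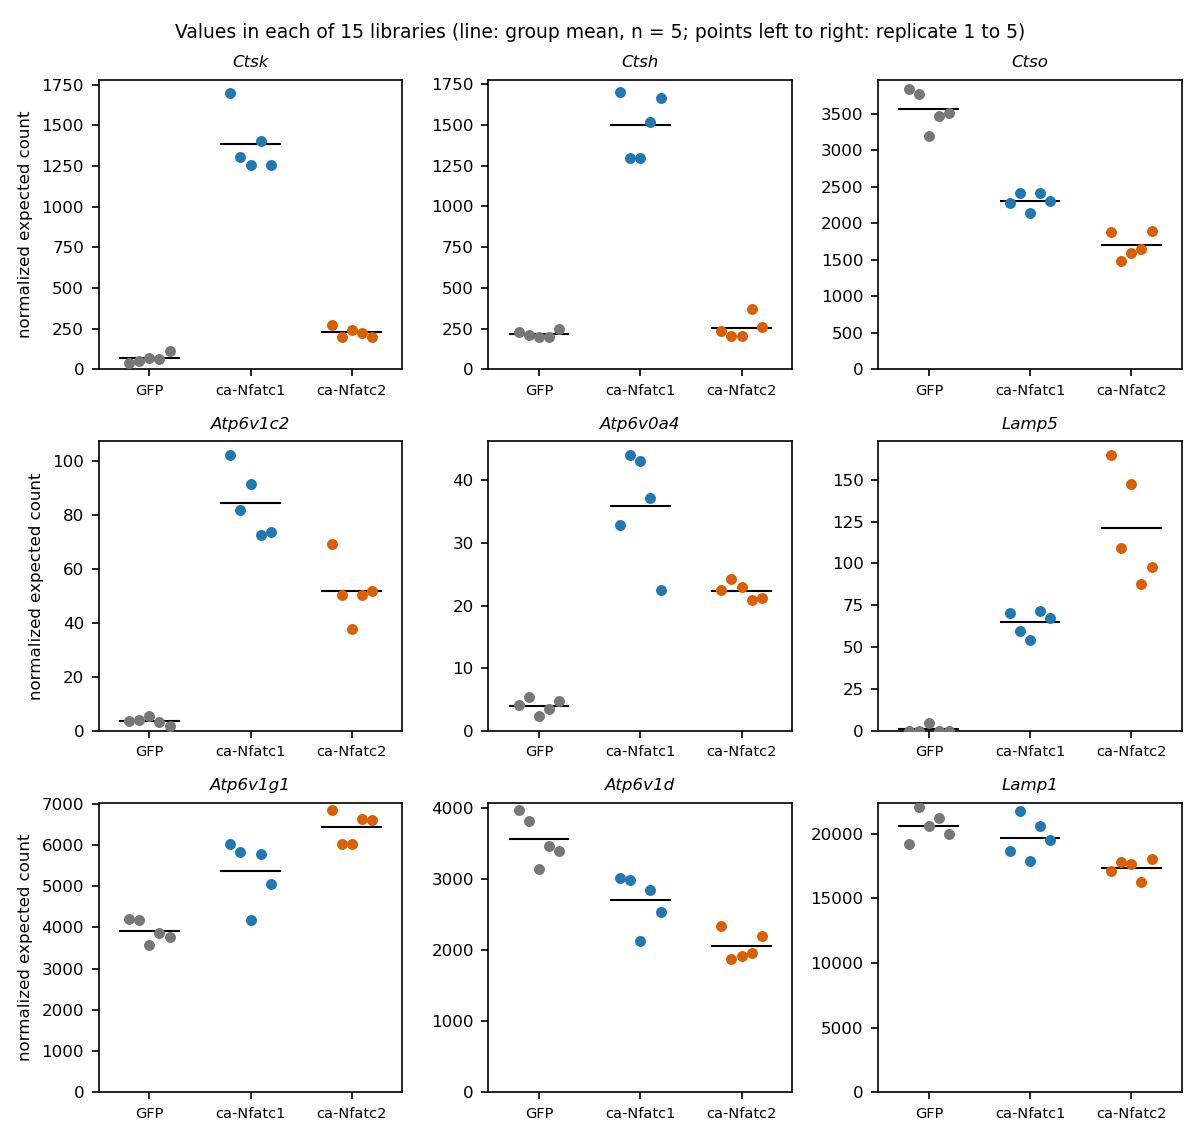
Normalized expected counts of 9 lysosome genes in each of the 15 libraries (points, replicates 1 to 5 from left to right) with the group mean (line, n = 5); every vertical axis starts at 0. Ctsk and Ctsh are highest with ca-Nfatc1, Ctso and Atp6v1d fall from GFP over ca-Nfatc1 to ca-Nfatc2, Lamp5 and Atp6v1g1 are highest with ca-Nfatc2, and Lamp1 differs little.

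The cathepsin genes Ctss and Ctsz and the gene Laptm5, which are known from macrophages, were read beside the macrophage genes of the same libraries. Ctss, the antigen-processing cathepsin S, lies next to Ctsk on chromosome 3 but did not rise. It was at 484, 461, 415, 352 and 441 with GFP, at 398, 469.7, 298, 315 and 344 with ca-Nfatc1 and at 226, 258, 257, 67.8 and 195 with ca-Nfatc2. The ca-Nfatc2 libraries were all below all others, and replicate 4 was the lowest by far. On the log2 scale the fold change was -1.23 (SE 0.27, adjusted p = 0.000591) with ca-Nfatc2 and -0.25 (adjusted p = 0.443) with ca-Nfatc1. Without ca-Nfatc2 replicate 4 the first was -0.88 (adjusted p = 1.6e-05). Laptm5, a lysosomal protein of white blood cells, averaged 87.5 ± 18.5, 74.4 ± 20.6 and 53.1 ± 20.8. It was lower with ca-Nfatc2 (-0.78, adjusted p = 0.0167, and 0.0532 without ca-Nfatc2 replicate 1) and at -0.26 with ca-Nfatc1 (adjusted p = 0.432). Of 7 lymphocyte genes 2 were tested, and 1 of them (50%) was lower with each factor, where 28.4% and 32.8% of all genes fell. The Laptm5 difference between the factors of -0.52 passed with the replicate block (adjusted p = 0.121 without it and 0.0109 with it) and without ca-Nfatc1 replicate 1 (0.0268).

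Ctsz, a carboxypeptidase abundant in macrophages, rose with ca-Nfatc2. It was at 1239.8, 1299.8, 1342, 1239.9 and 1431 with GFP, at 1300.3, 1289.6, 1195, 1374 and 1456 with ca-Nfatc1 and at 1629, 1798, 1765, 3211 and 2084 with ca-Nfatc2. All ca-Nfatc2 libraries were above all others, replicate 4 again the farthest. The log2 fold change was 0.63 (SE 0.13, adjusted p = 0.000383) with ca-Nfatc2 and 0.01 (95% interval -0.27 to 0.29) with ca-Nfatc1, and the former was 0.47 without replicate 4 (adjusted p = 3.57e-05). Ctsz overlaps Nelfcd in the genome, which was at 649, 759.8 and 965 in the GFP, ca-Nfatc1 and ca-Nfatc2 islets. In the same ca-Nfatc2 replicate 4, Csf1r (the receptor that defines macrophages) was at 1047, against 236 to 437 in the other 4 ca-Nfatc2 libraries. Cd74 was at 1332 against 329 to 715, whereas Lyz2 was at 151 against 527 to 828 and C1qa at 40.7 against 121 to 249. The GFP libraries had Csf1r at 74.4 to 104, below every ca-NFAT library (105.8 to 115.4 with ca-Nfatc1), and C1qa at 644 to 941, above every ca-NFAT library. Cd74 was at 268 to 367 with GFP and at 440 to 683 with ca-Nfatc1, while the ca-Nfatc2 libraries reached into the GFP range. Lyz2 was at 548 to 949 with GFP, a range that the ca-Nfatc2 libraries overlapped. Of 13 macrophage genes tested, 1 rose and 1 fell (7.69% each) in ca-Nfatc1 islets, where 28.4% of all genes rose and 28.4% fell. In ca-Nfatc2 islets 3 rose (23.1%) and 7 fell (53.8%), against 35.7% and 32.8% of all genes. Their summed level was 2294 to 3144 in GFP islets, 2420.4 to 3327 in ca-Nfatc1 islets and 1984 to 3057 in ca-Nfatc2 islets. Their part in the results for Ctss, Laptm5 and Ctsz was not tested.

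**Figure D4:**
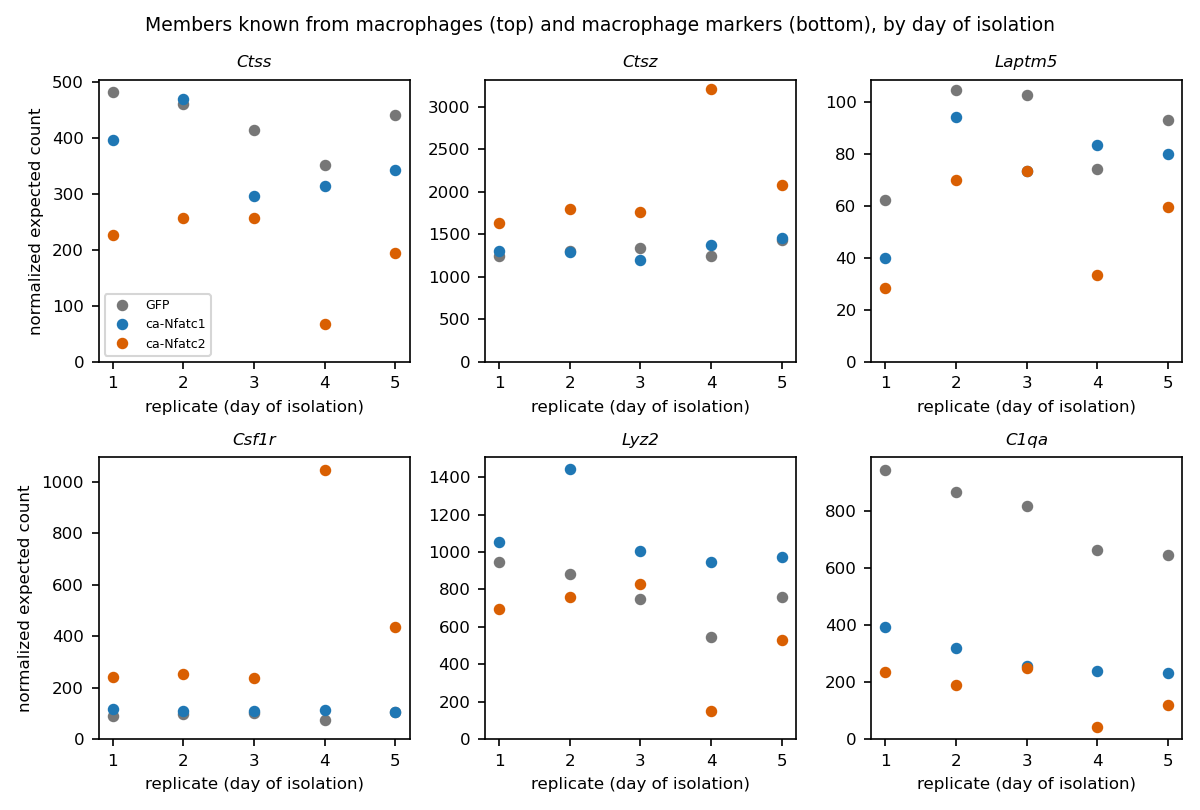
Normalized expected counts of Ctss, Ctsz and Laptm5 (top) and of the macrophage genes Csf1r, Lyz2 and C1qa (bottom) by day of isolation, with 1 point per library. In ca-Nfatc2 replicate 4, Ctsz (3211) and Csf1r (1047) are at their highest and Ctss (67.8), Lyz2 (151) and C1qa (40.7) at their lowest. In every ca-NFAT library Csf1r is above, and C1qa below, all GFP libraries, with Csf1r only slightly above them in the ca-Nfatc1 libraries.

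Of the 6 membrane proteins tested, 1 rose (16.7%) and 1 fell (16.7%) in ca-Nfatc1 islets, where 28.4% of all genes rose and 28.4% fell. In ca-Nfatc2 islets 1 rose (16.7%) and 4 fell (66.7%), against 35.7% and 32.8% of all genes. The gene that rose, and that passed the filter through the ca-NFAT libraries, was Lamp5, the LAMP of neurons and plasmacytoid dendritic cells. It was listed at 0 in 4 GFP libraries and at 4.47 in GFP replicate 3. With ca-Nfatc1 it was at 70.4, 59.8, 54.4, 71.6 and 67.7, and with ca-Nfatc2 at 165, 109, 147, 87.6 and 98.1. The 3 groups did not overlap, and ca-Nfatc2 was the highest on each of the 5 days. Relative to GFP, the log2 fold change was 5.54 (SE 0.38, adjusted p = 9.16e-10) with ca-Nfatc1 and 6.40 (SE 0.38, adjusted p = 9.8e-11) with ca-Nfatc2, and these folds depend on the pseudocount, with 2.79 and 3.57 at a pseudocount of 10 and 8.23 and 9.10 at 0.1. The difference between the factors of 0.86 had an adjusted p of 0.0715, and it passed with the replicate block (0.0486), with a pseudocount of 10 (0.000654), under quantile normalization (0.0264), in a fit of those 2 groups alone (0.00113) and without GFP replicate 3 (0.00137). Of 4 neuron genes tested, none rose, 1 fell in the ca-Nfatc1 islets and all 4 fell in the ca-Nfatc2 islets, and their part in the result was not tested.

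The abundant LAMPs were lower with ca-Nfatc2. Lamp1 was at 19205, 22088, 20586, 21183 and 19985 with GFP. It was at 18695, 21791, 17893, 20566 and 19482 with ca-Nfatc1 and at 17093, 17791, 17631, 16275 and 18044 with ca-Nfatc2. All ca-Nfatc2 libraries were below the GFP range, while the ca-Nfatc1 libraries overlapped it. The log2 fold change was -0.25 (SE 0.07, adjusted p = 0.00326) with ca-Nfatc2 and -0.07 (95% interval -0.21 to 0.07) with ca-Nfatc1. Its difference between the factors of -0.18 (adjusted p = 0.034) did not pass in a fit of those 2 groups alone (0.0571), without ca-Nfatc1 replicates 2, 4 or 5 or without ca-Nfatc2 replicates 1 or 4 (0.0551 to 0.0962). Lamp2 was at 14692, 14527, 11840.2, 13467 and 13208 with GFP, at 11949, 12806, 10154, 12643 and 11244 with ca-Nfatc1 and at 11061, 10349, 9398, 9652 and 11544 with ca-Nfatc2. Only the ca-Nfatc2 libraries were clear of the GFP range. As a log2 fold change this was -0.38 (SE 0.08, adjusted p = 0.00048) with ca-Nfatc2 and -0.20 (adjusted p = 0.04) with ca-Nfatc1. The ca-Nfatc1 call was lost under equal totals (0.111), with no filter on low values (0.0635) and without GFP replicates 1, 2, 4 or 5 or ca-Nfatc1 replicates 1, 3 or 5 (0.0521 to 0.109). Between the factors Lamp2 differed by -0.18 (adjusted p = 0.0823), which passed with the replicate block (0.0176), under equal totals (0.0480) and quantile normalization (0.000633), and without ca-Nfatc1 replicate 3 (0.0252) or ca-Nfatc2 replicate 5 (0.0489).

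The LAPTM proteins span the lysosomal membrane several times and help to sort other proteins there. Laptm4b was at 2292, 1899, 1696, 1837 and 1909 with GFP, at 2256, 2050.4, 1683, 2038 and 1978 with ca-Nfatc1 and at 1606, 1424, 1387, 1380.0 and 1438 with ca-Nfatc2. The ca-Nfatc2 libraries were below all others, and the GFP and ca-Nfatc1 libraries overlapped. Its size as a log2 fold change was -0.41 (SE 0.08, adjusted p = 0.000297) with ca-Nfatc2 and 0.06 (95% interval -0.12 to 0.23) with ca-Nfatc1, and the difference was -0.46 (adjusted p = 0.000177). Its relative Laptm4a had the smallest change of the class. It was at 9668, 8855, 8077, 8519 and 8424 with GFP, at 10026, 9576, 7572, 9124 and 8309 with ca-Nfatc1 and at 8934, 7832, 8134, 7601 and 8461 with ca-Nfatc2, values that overlapped in every pair of groups. Its log2 fold changes were 0.03 (95% interval -0.13 to 0.19) and -0.09 (95% interval -0.25 to 0.07), and the second passed under quantile normalization (-0.17, adjusted p = 0.0176).

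Sorted by both comparisons with GFP, 9 of the 37 genes were higher with both ca-NFATs, and these include all 5 that were below 10 in the GFP islets (the others were Atp6v0b, Atp6v1g1, Atp6v1g2 and Ctsk). Another 9 were lower with both (Atp6v0d1, Atp6v1a, Atp6v1d, Atp6v1h, Ctsb, Ctsd, Ctsl, Ctso and Lamp2). With ca-Nfatc1 alone 5 genes passed, all of them higher (Atp6v1b2, Atp6v1c1, Atp6v1e1, Ctsa and Ctsh). With ca-Nfatc2 alone 2 were higher (Atp6v0a2 and Ctsz) and 6 lower (Atp6v0a1, Atp6v0c, Ctss, Lamp1, Laptm4b and Laptm5). No gene passed in opposite directions. Both comparisons share the GFP libraries, and the matching joint shares over all genes were not computed. These joint counts therefore describe the 37 genes and do not set them apart from other genes. The 6 that passed with neither were Atp6v0e, Atp6v0e2, Atp6v1f, Ctsc, Ctsf and Laptm4a. Of the 5 genes that passed with ca-Nfatc1 alone, all 5 were lower with ca-Nfatc2 than with ca-Nfatc1 in the direct comparison. Of the 8 that passed with ca-Nfatc2 alone, Atp6v0a2 and Laptm5 did not pass the direct comparison. The direct comparison uses the same ca-NFAT libraries by which these genes were sorted, so it is no separate support for the sorting.

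The 10 genes below the filter had low values. The placental cathepsins Ctsj, Ctsm, Ctsq and Ctsr and the kidney stalk subunit Atp6v1g3 were listed at 0 in all 15 libraries. Atp6v1e2 (testis) and Ctsg (neutrophil granules) were above 0 in 1 library each, at 0.876. Atp6v1b1, the head subunit of kidney acid-secreting cells, was above 0 in 9 libraries, none of them GFP, with 3.46 as its highest value. Lamp3, a LAMP of dendritic cells and lung, reached 10.5, and Ctsw, a cathepsin of cytotoxic lymphocytes, reached 14.7.

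Genes of the same compartment outside these families were counted from lists of their other parts. Of 23 glycosidases and sulfatases, 3 rose (13%) and 11 fell (47.8%) in ca-Nfatc1 islets, against 2 (8.7%) and 16 (69.6%) in ca-Nfatc2 islets. Galns (log2 fold changes -1.15 and -1.14), Hyal1 (-1.47 with ca-Nfatc1, and 49.7 against 24.3 normalized expected counts with ca-Nfatc2) and Gusb (1.80 and 1.28), which encodes beta-glucuronidase, had the largest changes, Gusb against the others. Of 9 lipid-degrading proteins, 2 rose and 2 fell (22.2% each) in ca-Nfatc1 islets, against 1 (11.1%) and 4 (44.4%) in ca-Nfatc2 islets. Ppt2, a palmitoyl thioesterase, was higher with both (2.56 and 1.75), and the acid ceramidase Asah1 (-0.48 and -0.89) and the activator precursor Psap (-0.40 and -0.69) were lower. Of 12 other proteases, phosphatases and nucleases, 3 rose and 3 fell (25% each) in ca-Nfatc1 islets, against 1 (8.33%) and 3 (25%) in ca-Nfatc2 islets. Over all genes tested, 28.4% rose and 28.4% fell with ca-Nfatc1, and 35.7% rose and 32.8% fell with ca-Nfatc2. All shares of these 12 genes were below those. By contrast, the lower shares of the glycosidases and sulfatases were above them with both factors. That of the lipid-degrading proteins was above with ca-Nfatc2 only. Acp5 (3.53 and 3.46, the latter with the replicate named above) and Ifi30 (-1.17 and -1.23), a thiol reductase, changed the most, followed by the hydrolase gene Ggh with ca-Nfatc1 (0.55) and the carboxypeptidase gene Scpep1 with ca-Nfatc2 (-0.39).

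Other membrane proteins fell more often than they rose, and both mannose 6-phosphate receptors, which carry new enzymes to the lysosome, rose. Of 25 membrane proteins, 4 rose (16%) and 13 fell (52%) in ca-Nfatc1 islets, where 28.4% of all genes rose and 28.4% fell. In ca-Nfatc2 islets 2 rose (8%) and 17 fell (68%), against 35.7% and 32.8% of all genes. The transporter Abcb9 (-0.69 and -1.19) and the sialomucin Cd164 (at -0.99 with ca-Nfatc2) were lower, as were Cd63 (-0.67) with ca-Nfatc1 and further members, and Sidt2 was higher (0.62 and 0.97). Of 12 genes of enzyme sorting, 4 rose (33.3%) and 1 fell (8.33%) in ca-Nfatc1 islets, against 4 (33.3%) and 5 (41.7%) in ca-Nfatc2 islets. M6pr, the cation-dependent receptor, averaged 5074, 11682 and 13481 in the GFP, ca-Nfatc1 and ca-Nfatc2 islets (log2 fold change 1.41 with ca-Nfatc2), and Igf2r, the cation-independent receptor, was at 3693, 7489 and 8106 (1.01 and 1.13). The adaptor gene Gga1 was next with ca-Nfatc1 (0.45), and Sumf1, which activates sulfatases, was next with ca-Nfatc2 (-0.51). Of 5 cathepsin inhibitors, 2 rose (40%) and 1 fell (20%) in ca-Nfatc1 islets, against 2 (40%) and 2 (40%) in ca-Nfatc2 islets. Stfa3 and Cst7, the 2 that rose with ca-Nfatc1, had GFP means below 10 and passed the filter through the ca-NFAT libraries. Their rises, that of Stfa3 with ca-Nfatc2 included, follow in part from the filter. Stfa3, a stefin, was listed at 0 with GFP and averaged 8.01 with ca-Nfatc1 and 22.5 with ca-Nfatc2. Cst7, the inhibitor cystatin F, was higher with ca-Nfatc1 (1.72) and at 0.31 with ca-Nfatc2 (adjusted p = 0.417), Cst6 was higher with ca-Nfatc2 (0.84), Cstb was lower with both (-0.28 and -0.34) and Cst3 was lower with ca-Nfatc2 (-0.38).

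Partners and regulators of the pump were counted last. Of 4 accessory subunits outside the family name, none was higher, Atp6ap1 was lower with both (-0.31 and -0.45) and Rnasek was lower with ca-Nfatc2 (-0.48). Of 10 assembly factors, 1 rose and 3 fell in ca-Nfatc1 islets, against 2 and 4 in ca-Nfatc2 islets, so that 30% and 40% fell, beside 28.4% and 32.8% of all genes. Rogdi (-1.24 and -1.44) and Wdr7 (-0.64 and -0.84), 2 subunits of the complex that joins V1 to V0, fell the most, with Ccdc115 (-0.35) after them for ca-Nfatc1 and Ncoa7 (-0.60) for ca-Nfatc2. Of 17 genes for MiT/TFE factors and their control by the kinase mTORC1, 2 rose and 10 fell in ca-Nfatc1 islets, against 3 and 11 in ca-Nfatc2 islets (58.8% and 64.7% lower). The Rag GTPase genes Rragd (-1.17 and -1.58) and Rragb (-1.21 and -1.44) fell the most, and Fnip2 was next with ca-Nfatc1 (-0.85). Tfeb averaged 96.2, 70.6 and 43.5 in the GFP, ca-Nfatc1 and ca-Nfatc2 islets and was lower with both (-0.43 and -1.12). Tfe3, by contrast, was at 683, 806 and 1485, and was higher with ca-Nfatc2 (1.10) and at 0.24 with ca-Nfatc1 (adjusted p = 0.0742). Of 28 autophagy genes, 7 rose (25%) and 10 fell (35.7%) in ca-Nfatc1 islets, where 28.4% of all genes rose and 28.4% fell. In ca-Nfatc2 islets 6 rose (21.4%) and 14 fell (50%), against 35.7% and 32.8% of all genes. Nbr1 (1.26), Becn1 (0.97) and Gabarapl2 (0.87) had the largest changes with ca-Nfatc1, and Wipi1 (-0.95), Becn1 (0.89) and the receptor gene Optn (-0.87) with ca-Nfatc2. The shares of these lists, beside the background of all genes, are descriptions without a test of the list.

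**Figure D5:**
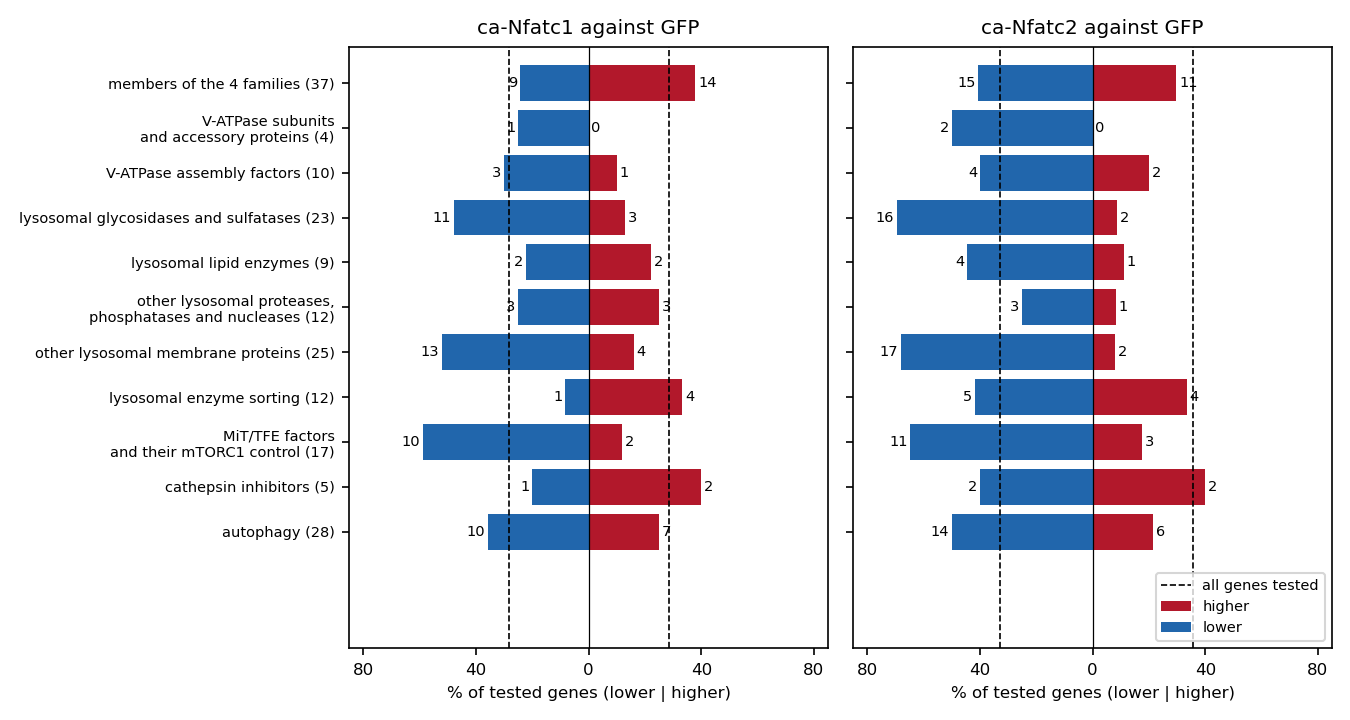
Share of tested genes that were higher (red) or lower (blue) with ca-Nfatc1 and ca-Nfatc2 relative to GFP, for the 37 lysosome genes and 10 lists of related genes, with the number of genes tested in parentheses and the number called at the end of each bar. Dashed lines mark the shares over all 14151 genes tested (28.4% and 28.4% with ca-Nfatc1, 35.7% and 32.8% with ca-Nfatc2), and the glycosidases and sulfatases, the other membrane proteins and the MiT/TFE list extend furthest to the lower side.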

How the data were processed

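RNA of whole mouse islets was sequenced in 15 libraries, 5 for each of GFP, ca-Nfatc1 and ca-Nfatc2. The authors aligned reads to mm10 transcripts with Bowtie, estimated expected counts with RSEM and deposited a signal for each gene, namely expected counts divided by a size factor of each library (median-by-ratio normalization). Versions are not given in the sources used here. The table also holds the fold changes, means and posterior probabilities of the authors' own comparisons, which were not used, as was a second table of selected genes. Because the deposited signal is normalized, no count model was used. All 14151 genes with a 75th percentile above 10 were fitted on log2(value + 1) with limma 3.58.1 (trend, R 4.3.3), as 1 fit of 15 libraries with group alone, two-sided, with Benjamini-Hochberg adjustment and a threshold of 0.05. The fit was tested on simulated data.

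The genes, lists and tests were chosen with earlier results of these data known. Every tested gene is named. Values in every library are given for up to 4 genes of each role class with the largest F statistic and for the one with the smallest, and for Ctss and Ctsz, which were chosen after their values were seen. Of each related list, up to 3 genes with the largest change among those that passed are named. Tfe3, Cst3, Cst6, Ocstamp and Dcstamp were also added after their values were seen. Libraries of a day share 1 islet pool, so the day pairs them. The correlation of deviations from the group means was 0.219 on average over 15 same-day pairs (12 of 15 above 0.1) and -0.0551 over 60 other pairs. Alternatives were pseudocounts of 0.1 and 10, no filter, a mean of at least 100, equal totals, quantile normalization, a replicate block of day, fits of 2 groups and leaving out each library. Reads of overlapping genes may be divided in error, since strand is not given in the sources used here.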

Additional observations from a re-analysis of the deposited data

Results flagged for a closer look

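Of 111 groups of 5 libraries (37 genes in 3 groups), 7 had a highest or lowest library set apart by more than Dixon's critical value of 0.71, and chance gives about 1 in 20. In ca-Nfatc2 replicate 4, Ctsz (3211) and Atp6v0a2 (1385) were the highest of their group. In ca-Nfatc2 replicate 1, Laptm4b (1606) was the highest and Atp6v0a1 (1356) the lowest. Atp6v1g2 was lowest in ca-Nfatc1 replicate 4 (79.7). In the GFP islets, Ctse was highest in replicate 5 (13.82) and Lamp5 in replicate 3 (4.471), where the other 4 libraries list Lamp5 at 0.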

How the results depend on the processing

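No direction of a called gene turned under any alternative. With a mean of at least 100, 30 of the 37 genes were tested and the genes higher were 8 with ca-Nfatc1 and 5 with ca-Nfatc2, since fewer genes enter. Leaving out each library in turn gave 13 to 14 higher and 7 to 9 lower genes for ca-Nfatc1 against GFP, 10 to 13 higher and 14 to 16 lower for ca-Nfatc2 against GFP, and 3 to 4 higher and 15 to 18 lower between the factors. With day as a replicate block, the pairing that the labels give, the counts were 14 higher and 10 lower, 13 and 18, and 4 and 22 in the same order. The block added 11 calls, whose values stand beside the genes, and changed no other call. Equal totals gave 16 and 7, 13 and 14, and 3 and 20, quantile normalization gave 12 and 9, 9 and 19, and 4 and 21, and no filter gave 16 and 8, 13 and 15, and 3 and 17. Single calls lost were 34 over all libraries left out in turn, 3 under equal totals, 4 under quantile normalization, 2 with no filter and 2 in fits of 2 groups. The cause was not tested. At GFP levels below 10, folds depend on the pseudocount.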

Other observations

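No marker gene of the endocrine cell types rose in the ca-NFAT islets, whereas duct genes changed in both directions. Over all genes tested, 28.4% rose and 28.4% fell with ca-Nfatc1, and 35.7% rose and 32.8% fell with ca-Nfatc2. All 9 beta cell genes fell in the ca-Nfatc2 islets and 7 of 9 (77.8%) in the ca-Nfatc1 islets. Of 5 alpha cell genes, 3 fell with ca-Nfatc1 and 5 with ca-Nfatc2, and all 3 delta cell genes and Ppy fell with both. Of 4 acinar genes tested, 2 rose (50%) and 2 fell (50%) with ca-Nfatc1, and 2 fell (50%) with ca-Nfatc2. The 2 that rose, Cela2a and Cpa1, had GFP means of 5.29 and 3.70 and passed the filter through the ca-NFAT libraries. Their ca-Nfatc1 levels varied widely, at 38.3 ± 42.7 and 32.4 ± 24.7. Of 7 duct genes, 4 rose (57.1%) and 2 fell (Krt7 and Epcam, 28.6%) with each factor. The median of their summed level was 11579, 10945 and 7537 in the GFP, ca-Nfatc1 and ca-Nfatc2 islets. Of 5 endothelial genes, 1 (20%) fell with ca-Nfatc1 and 4 (80%) with ca-Nfatc2, and of 6 mesenchymal genes 1 (16.7%) and 4 (66.7%) fell. The ca-Nfatc1 shares of these 2 lists were below that of all genes.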
